A study of Danio rerio with 9 samples.

Results

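Ion channel genes were followed in the inner ear of adult zebrafish after acoustic trauma. The genes were chosen by name and not by their values: a probe was taken when its gene name on the array began with the symbol of a potassium, sodium, calcium, chloride, HCN, TRP, P2X or acid-sensing channel or of an intracellular calcium release channel, or when its description named a voltage-gated channel. The L-type calcium channel genes cacna1d and cacna1s were left out by this choice. It returned 30 probes for 24 genes, out of 21495 gene probes on the array. By family these were 11 probes for 9 P2X genes, 6 probes for 6 acid-sensing channel genes, 6 probes for 3 TRP genes, 3 probes for 3 potassium channel genes, 3 probes for 2 calcium channel genes and 1 probe for 1 sodium channel gene. No chloride, HCN or intracellular calcium release channel probe carried a matching gene name.

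The fish formed 3 groups: controls without sound exposure, fish killed 2 days after sound exposure (Day 2) and fish killed 4 days after it (Day 4). Both whole ears of the 18 to 20 fish of a group, semicircular canals included, were pooled into 1 RNA sample, and each pool was hybridized to 3 Agilent arrays with a single dye (Cy3). The 3 arrays of a group are therefore technical replicates, and every P-value below measures the spread between hybridizations of a pool and not the spread between fish. The first 2 comparisons set each exposed group against control (Day 2:Control and Day 4:Control), and the third set the exposed groups against each other (Day 4:Day 2). In whole ears fewer cells of a type cannot be told apart from less RNA per cell.

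Hearing and balance in fish depend on hair cells, which turn the bending of their bundles into a receptor current through mechanically gated channels. That current is shaped by calcium and potassium channels in the plasma membrane, and transmitter release then drives action potentials, carried by sodium channels, in the eighth nerve. P2X receptors are cation channels opened by extracellular ATP, which is released in the ear during intense sound in mammals, and the acid-sensing channels (named accn on the array and asic today) are sodium channels opened by protons. TRP channels form a wide family of cation channels that includes chemical sensors and epithelial calcium channels.

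Levels are given as log2 of the processed signal minus the 50th percentile of the array, so that 0 is the middle of all spots on that array, and levels of different probes are not compared. A probe counted as detected on an array when at least 1 of its 2 spots was well above background by the scanner software. The share of spots that passed was below 50% on control replicate 3 (47.3%), Day 2 replicate 1 (49.5%) and Day 2 replicate 3 (47.9%). It was 56.9% on Day 2 replicate 2 and lowest on Day 4 replicates 2 and 3, at 39.5% and 44.5%. These last arrays lay on slide 3, as did control replicate 3 and Day 2 replicate 3. Slide 3 was read on another scan run with a local background of 129 to 153.5 intensity units against 63.5 to 74 on the other slides. On the arrays below 50% the 50th percentile used for scaling lay among dim spots near background, and the order of groups on scaled values rests on it. Marker lists gave the tissue context. Of the 6 hair cell marker probes found, 4 were detected on all 9 arrays and none was significantly regulated. Of the 38 skeletal muscle probes 5 fell in Day 2:Control and 9 in Day 4:Control. The 5 were for zgc:66286 (RefSeq myl13) and zgc:86932 (RefSeq tnnc1b) only. The 9 were for these genes and for ckm, zgc:64204 (RefSeq ckmb), atp2a1 and acta1. The summed level of the 38 was 490 to 530 in control, 357 to 398 on Day 2 and 267 to 331 on Day 4. None of the 14 neuron probes was significantly regulated. Their summed level was 458 to 480 in control, 412 to 445 on Day 2 and 507 to 640 on Day 4. Among the 17 myelin and glia probes 3 were lower in Day 2:Control, all of them for the glial gene gfap. The 5 pituitary probes, for 5 of the 9 genes listed, included 3 that were higher in Day 2:Control, for pomc, cga and RefSeq fshb. Those of pomc and cga were also higher in Day 4:Control. Of the 9 arrays pomc was detected on 8, cga on 5 and fshb on 2. The control means of cga and fshb, -2.41 and -2.65, were near those of undetected probes, so their fold changes are no measure of transcript level. The part of these cell types in the channel results was not tested.

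Most of the channel probes were dim. Of the 30 probes, 16 (53.3%) were not detected on any of the 9 arrays, against 35.4% of all probes. The 14 others stood for 11 of the 24 genes, as far as the probes of this choice tell. Detection on all 3 arrays of a group was reached by 8 channel probes in control (26.7%, against 48.4% of all probes), by 10 on Day 2 (33.3%, against 48.6%) and by 2 on Day 4 (6.67%, against 40.0%). The 2 probes found on every array were those of kcnk5, a potassium channel, and scn8a, a sodium channel. A further 6 probes, for accn1, accn2a, p2rx2, cacng2 and cacna1c with 2 probes, were detected on all 6 control and Day 2 arrays but missed 1 or 2 of the Day 4 arrays. No channel spot was saturated.

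**Figure D1:**
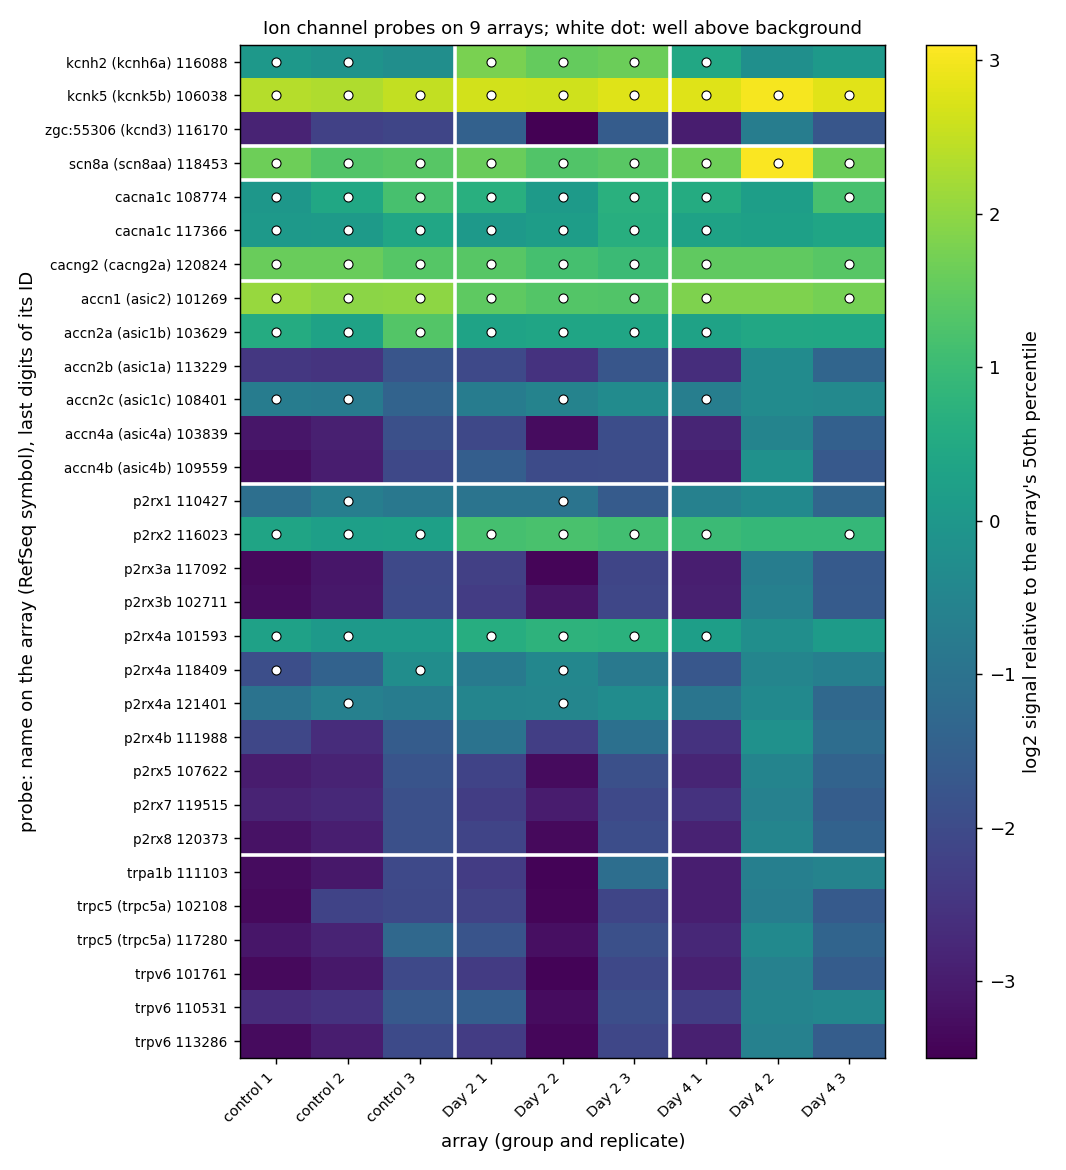
Level of each of the 30 channel probes (rows, grouped by family) on the 9 arrays (columns), coloured by log2 signal relative to the 50th percentile of the array. White dots mark arrays on which the probe was detected. The rows of kcnk5 and scn8a carry a dot on every array, and 16 rows carry none.

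The undetected probes fell mainly into 3 families. All 6 TRP probes were undetected, namely 1 for trpa1b (a sensor of chemical irritants), 2 for trpc5 (RefSeq trpc5a) and 3 for trpv6 (an epithelial calcium channel). So were the 6 P2X genes p2rx3a, p2rx3b, p2rx4b, p2rx5, p2rx7 and p2rx8, and the acid-sensing genes accn2b (RefSeq asic1a), accn4a and accn4b. The remaining probe was that of zgc:55306, which is kcnd3, a Shal-type potassium channel of transient currents. This is a statement on the probe and not on the gene, since a further probe annotated as zgc:55306, outside the naming rule, was detected on all 9 arrays. The signal of these 16 probes followed the floor of each array: their median was -3.14 on control replicate 1, where the median of all 7602 undetected probes was -3.18, and -0.56 on Day 4 replicate 2, where that of all undetected probes was -0.55. On Day 2 replicate 2 both medians were -3.29. The floor was highest on the Day 4 arrays of slide 3, and all 16 probes had a fitted log2 difference above 0 in Day 4:Control, with a median of 0.58 against 0.61 for all undetected probes. These differences are no measure of transcript level, and no fold change is given for the undetected probes.

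**Figure D2:**
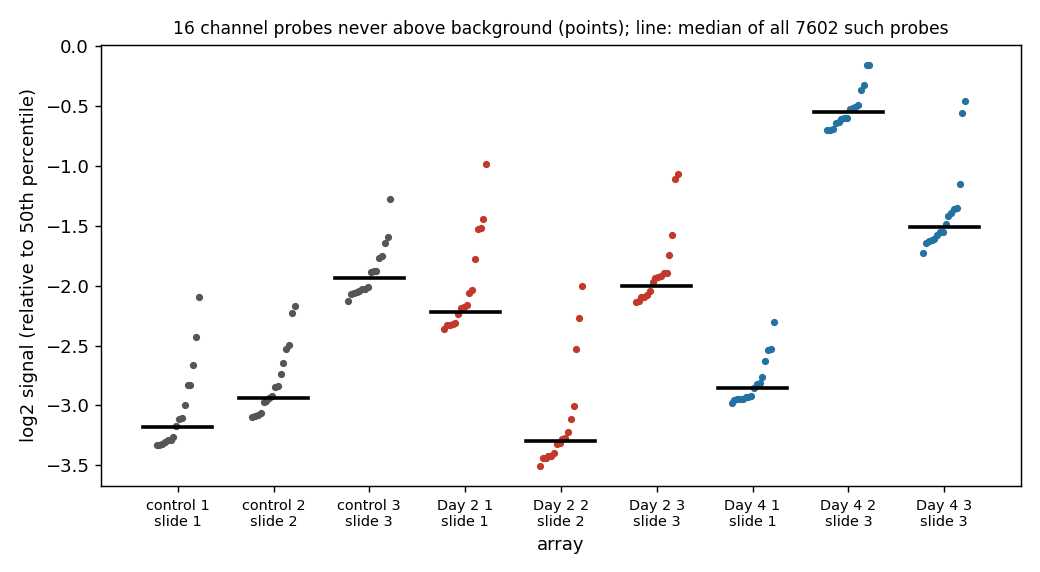
Log2 signal of the 16 undetected channel probes on each array (points, coloured by group, sorted within the array), with the median of all 7602 undetected probes as a line. The medians of the points ran from -3.29 on Day 2 replicate 2 to -0.56 on Day 4 replicate 2, close to the line, while single probes stood above it, for example at -0.98 on Day 2 replicate 1, where the line is at -2.22.

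At an adjusted P-value of at most 0.05 and a fold change of at least 1.4, 2 of the 30 channel probes were significantly regulated in Day 2:Control, both higher on Day 2, namely kcnh2 and p2rx2. The background was 158 of 21495 probes (0.735%) in either direction and 118 (0.549%) higher. No channel probe was significantly regulated in Day 4:Control, where 0.279% of all probes were, or in Day 4:Day 2, where 0.0651% were. Before adjustment, with the same thresholds on the limma P-value and the fold change, Day 2:Control held 4 channel probes (5.7% of all probes), Day 4:Control held 1 (6.98%) and Day 4:Day 2 held 2 (6.16%). In Day 2:Control the arrays of the groups did not overlap for 8 channel probes (24.4% of all probes), with 7 higher on Day 2 (15.6%) and 1 lower (8.8%). The Day 4:Control comparison gave 4 such probes (19.1%), of which 3 were higher (15.6%) and 1 was lower (3.52%). In Day 4:Day 2 there were 6 (18.7%), of which 3 were higher (12.8%) and 3 were lower (5.97%). The median log2 fold change of the 14 detected probes was 0.20 in Day 2:Control (0.05 for all probes detected on every array), 0.06 in Day 4:Control (0.11) and -0.06 in Day 4:Day 2 (0.06). These sets are unlike, since the 14 probes needed detection on only 1 array and 2 of them were detected on every array.

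**Figure D3:**
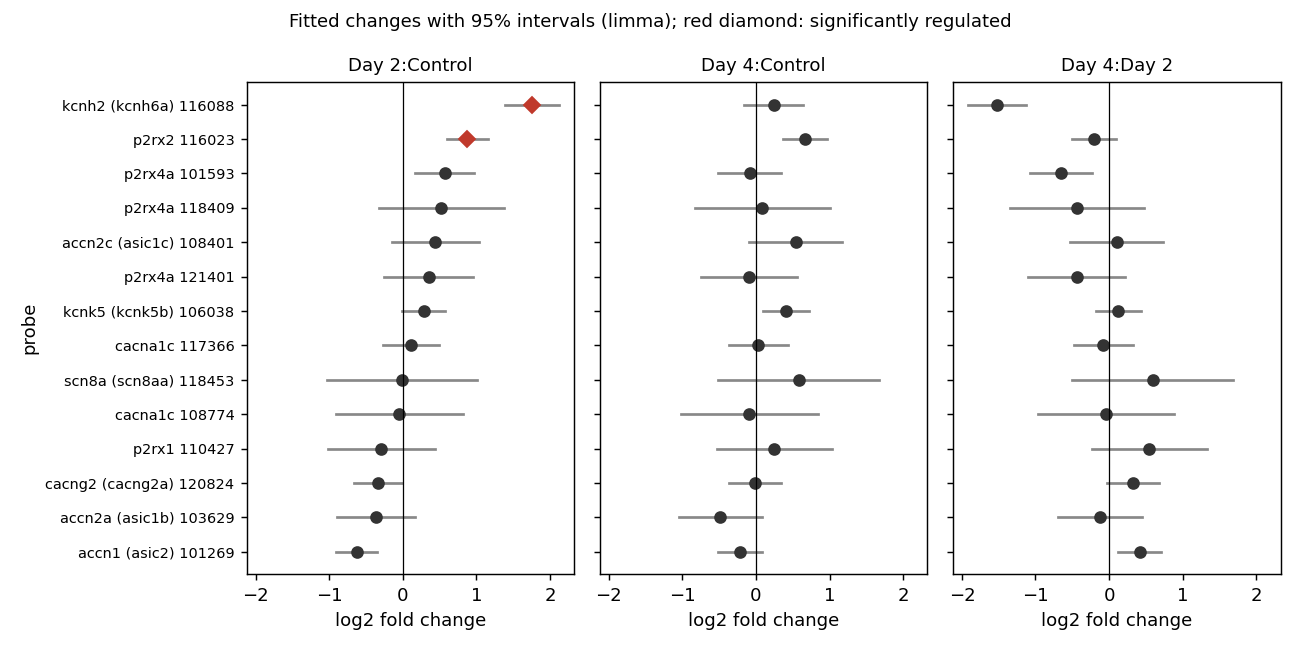
Fitted log2 fold change (point) and its 95% interval (line) for the 14 channel probes detected on at least 1 array, in each of the 3 comparisons, sorted by Day 2:Control. The red diamonds are the significantly regulated probes, kcnh2 at 1.76 and p2rx2 at 0.87 in Day 2:Control.

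The largest fitted change among the detected channel probes was that of kcnh2. The probe (A_15_P116088) lies on chromosome 3 of the danRer2 assembly, at chr3:25164073-25164132 on the plus strand, and the transcript it was designed on is named kcnh6a in RefSeq. It codes for an ERG-type potassium channel, a family that carries the repolarizing current of the heartbeat in zebrafish. Its level was 0.01, -0.12 and -0.23 on control replicates 1 to 3, then 1.77, 1.54 and 1.62 on Day 2, and 0.46, -0.22 and 0.05 on Day 4. All 3 Day 2 arrays stood well above all control and Day 4 arrays, and the control and Day 4 arrays overlapped. In unscaled intensity units the probe read 67.9 to 90.1 in control, 241 to 311 on Day 2 and 45.9 to 129 on Day 4.

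In Day 2:Control kcnh2 rose by 1.76 ± 0.15 on the log2 scale (SE, n = 3 arrays per group; adjusted P = 0.0148, limma), a fold change of 3.39. It was detected on 2 of the 3 control arrays. No control value of the probe lay below the lowest detected signal of its array. The bound therefore equals the fitted 3.39-fold and adds nothing to it. Within the 3 slides the log2 difference was 1.76, 1.66 and 1.85. The adjusted P was 0.0243 with the replicate number as a block. The call was kept without Day 4 replicate 1 (adjusted P = 0.0300) or Day 4 replicate 2 (0.0124) and was lost without any one of the other 7 arrays, at adjusted P of 0.0692 to 0.219 and log2 fold changes of 1.67 to 1.81. Normexp with an offset of 50 intensity units was also run in place of the deposited background correction. The added offset by itself shrinks log2 changes of dim probes such as this one. Under it 1 of all 21495 probes passed, and the log2 fold change of kcnh2 was 0.86 (adjusted P = 0.824). Normexp was 1 of the 3 processing alternatives out of 12 that lost the call. The 9 that kept it included the methods' paired test without adjustment. They also included a filter on dim probes that kcnh2 met only through Day 2, so that this alternative lends no support.

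On Day 4 kcnh2 was detected on 1 of 3 arrays. The log2 difference was 0.24 ± 0.16 in Day 4:Control (95% interval -0.16 to 0.63, adjusted P = 0.515). It was -1.52 ± 0.16 in Day 4:Day 2 (95% interval -1.92 to -1.13, adjusted P = 0.0757), which did not pass the threshold. The bound, a point value without sampling error, put Day 2 at 2.49-fold above Day 4. On Day 4 replicate 2 it filled in 0.48, the lowest detected signal of that array, yet accn1 at 1.82 was not detected there. The bound is therefore no strict limit. In 5 of 12 processing alternatives the Day 4:Day 2 fall counted as significant. Among them was scaling to the 75th percentile (adjusted P = 0.0382), under which 369 of all probes passed against 14. Another of the 5 was a filter on dim probes that kcnh2 met only through Day 2. In 1 more of the 5, the methods' paired test, the P-value was not adjusted. That test also paired by replicate numbers, which do not pair the Day 4 arrays.

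The second regulated probe was that of p2rx2 (A_15_P116023, danRer2 chr24:16229501-16229560, minus strand). The P2X2 subunit forms an ATP-gated channel and is the P2X subunit best known from the mammalian cochlea, where it is found in hair cells and spiral ganglion neurons. Its level was 0.36, 0.22 and 0.26 in control, 1.16, 1.21 and 1.09 on Day 2, and 1.01, 0.89 and 0.89 on Day 4. The 3 groups did not overlap, and they ordered as control, Day 4 and Day 2.

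In Day 2:Control p2rx2 rose by 0.87 ± 0.11 on the log2 scale (adjusted P = 0.0454, limma), a fold change of 1.83, with 0.80, 0.99 and 0.83 within the 3 slides. With the replicate block in place of the slide the adjusted P was 0.0672, so that the call was lost. It was kept without Day 4 replicate 2 (adjusted P = 0.0248) and lost without any one of the other 8 arrays (0.0955 to 0.579), at log2 fold changes of 0.81 to 0.91. The call was lost in 6 of 12 processing alternatives, and with normexp the log2 fold change was 0.49 (adjusted P = 0.824). The methods' paired test kept the call only without adjustment.

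In Day 4:Control the p2rx2 difference was 0.66 ± 0.12 (95% interval 0.37 to 0.96, adjusted P = 0.171), and it was 0.65 and 0.63 within slides 1 and 3. It did not pass the threshold. It counted as significant in 5 of 12 processing alternatives, of which 1, the methods' paired test, used an unadjusted P-value. That test also paired by replicate numbers, which do not pair the Day 4 arrays. With quantile normalization the adjusted P was 0.0192, and 484 of all probes passed against 60. The probe was detected on 2 of 3 Day 4 arrays. In unscaled units its signal was 188, 99.0 and 113 on Day 4 and 93.8 to 115 in control, so that these overlapped before the arrays were scaled. The Day 4:Day 2 difference was -0.21 ± 0.12 (95% interval -0.51 to 0.09, adjusted P = 0.698).

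**Figure D4:**
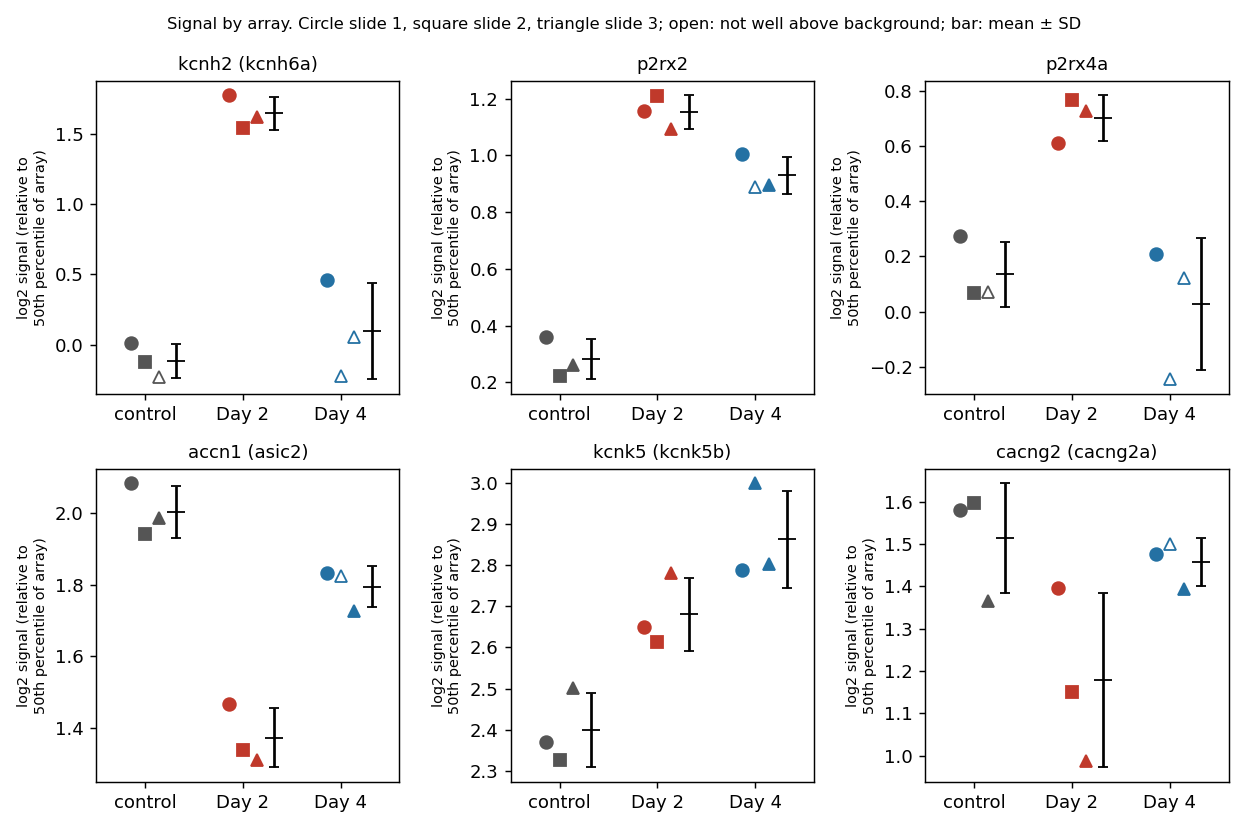
Log2 signal of 6 channel probes on each array by group. Circles, squares and triangles stand for slides 1, 2 and 3, open symbols for arrays on which the probe was not detected, and the bar for the mean and SD of 3 arrays. For kcnh2 and p2rx2 all Day 2 arrays lie above all control arrays (means 1.65 against -0.11, and 1.15 against 0.28), and for accn1 all Day 2 arrays lie below (1.37 against 2.00).

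Among the other P2X probes p2rx4a had the clearest signal. It codes for the P2X4 subunit, and 3 probes were present. Their placements on danRer2 did not overlap, although that of A_15_P121401 covers only 15 bases. The brightest (A_15_P101593) read 0.27, 0.07 and 0.07 in control, 0.61, 0.77 and 0.73 on Day 2, and 0.21, -0.25 and 0.12 on Day 4. The Day 2 arrays lay above all others, as for kcnh2, while control and Day 4 overlapped. The log2 difference was 0.57 ± 0.16 in Day 2:Control (95% interval 0.17 to 0.96, adjusted P = 0.288) and -0.65 ± 0.17 in Day 4:Day 2 (adjusted P = 0.347), and neither passed the threshold. The probe was detected on 2 of 3 control arrays and 1 of 3 Day 4 arrays. As bounds, which are point values without sampling error, Day 2 was 1.48-fold above control and 1.35-fold above Day 4. The value against Day 4 is no strict limit, for the reason given for kcnh2. The bound against control equals the fitted value, since no control value lay below the lowest detected signal of its array. The other p2rx4a probes were detected on 2 and 3 of the 9 arrays, with fitted Day 2:Control values of 0.35 and 0.52 and intervals that included 0. The probe of p2rx1 was detected on 1 control and 1 Day 2 array only.

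The acid-sensing channels held the only detected channel probe with all Day 2 arrays below all control arrays. This was accn1 (RefSeq asic2; A_15_P101269, danRer2 chr18:28005326-28005385), which codes for a proton-gated channel subunit found in neurons. Its level was 2.08, 1.94 and 1.98 in control, 1.47, 1.34 and 1.31 on Day 2, and 1.83, 1.82 and 1.73 on Day 4. On the scaled values the groups did not overlap, with Day 4 between Day 2 and control. The probe was not detected on Day 4 replicate 2. In unscaled units the probe read 309 to 379 in control, 195 to 251 on Day 2 and 333, 189 and 201 on Day 4. Before scaling, Day 4 thus overlapped both other groups. The log2 difference was -0.63 ± 0.11 in Day 2:Control (95% interval -0.90 to -0.36, adjusted P = 0.0915), with -0.62, -0.60 and -0.67 within the slides, and 0.41 ± 0.12 in Day 4:Day 2 (adjusted P = 0.385). Neither passed the threshold in the model used here. The Day 2:Control fall counted as significant in 6 of 12 processing alternatives. In 1 of these 6, the methods' paired test, the P-value was not adjusted. With scaling to the 75th percentile the adjusted P was 0.0160, and 629 of all probes passed against 158. Over the 12 alternatives the difference ran from -0.70 to -0.13, with adjusted P of up to 0.824. With 1 array left out it ran from -0.65 to -0.60, with adjusted P of 0.0317 to 0.763. It passed only without Day 4 replicate 2 (0.0317).

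The 2 other detected acid-sensing genes did not pass in any comparison. For accn2a (RefSeq asic1b) the level was 0.55, 0.30 and 1.33 in control, 0.34, 0.37 and 0.39 on Day 2, and 0.31, 0.45 and 0.43 on Day 4, and the groups overlapped. The accn2a probe was detected on 1 of 3 Day 4 arrays. On control replicate 3 its 2 spots read 0.20 and 2.45, a gap that no other array came near. The log2 difference in Day 2:Control was -0.36 ± 0.22 (95% interval -0.89 to 0.17, adjusted P = 0.850), 0.02 from the first spot alone and -0.09 without control replicate 3. For accn2c (RefSeq asic1c) detection was reached on 2 control arrays, 1 Day 2 array and 1 Day 4 array, at levels of -1.403 to -0.33 over all arrays.

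The potassium channel kcnk5 (RefSeq kcnk5b; A_15_P106038, danRer2 chr20:4570365-4570424) gave a signal on every array. It is a two-pore channel that carries background potassium current, and in zebrafish altered kcnk5b activity is known to cause overgrown fins. Its level was 2.37, 2.33 and 2.500 in control, 2.65, 2.61 and 2.78 on Day 2, and 2.79, 3.00 and 2.80 on Day 4. On the scaled values the lowest Day 2 array lay above the highest control array, and the lowest Day 4 array just above the highest Day 2 array. In unscaled intensity units the probe read 403 to 463 in control, 539 to 575 on Day 2 and 645, 428 and 423 on Day 4. Day 4 replicates 2 and 3 thus lay within the control range before scaling. With normexp the Day 4:Day 2 difference was -0.29. The log2 difference was 0.28 ± 0.12 in Day 2:Control (95% interval -0.01 to 0.57, adjusted P = 0.553), 0.41 ± 0.13 in Day 4:Control (0.10 to 0.72, adjusted P = 0.395) and 0.13 ± 0.13 in Day 4:Day 2 (-0.18 to 0.44, adjusted P = 0.698), and none passed. Within slides the Day 2:Control difference was 0.28, 0.29 and 0.28.

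The sodium channel scn8a (RefSeq scn8aa; A_15_P118453, danRer2 chr2:4516271-4516330) codes for a Nav1.6-type channel, which carries the action potential along axons. Its level was 1.63, 1.32 and 1.38 in control, 1.58, 1.31 and 1.401 on Day 2, and 1.64, 3.07 and 1.62 on Day 4. Day 4 replicate 2 stood apart from every other array, and its 2 spots there read 3.88 and 2.26. The log2 difference was 0.58 ± 0.44 in Day 4:Control (95% interval -0.51 to 1.68, adjusted P = 0.515) and 0.59 ± 0.44 in Day 4:Day 2 (-0.50 to 1.69, adjusted P = 0.698). Without Day 4 replicate 2 these values were 0.12 and 0.13. In Day 2:Control it was -0.01 ± 0.41 (-1.03 to 1.01).

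**Figure D5:**
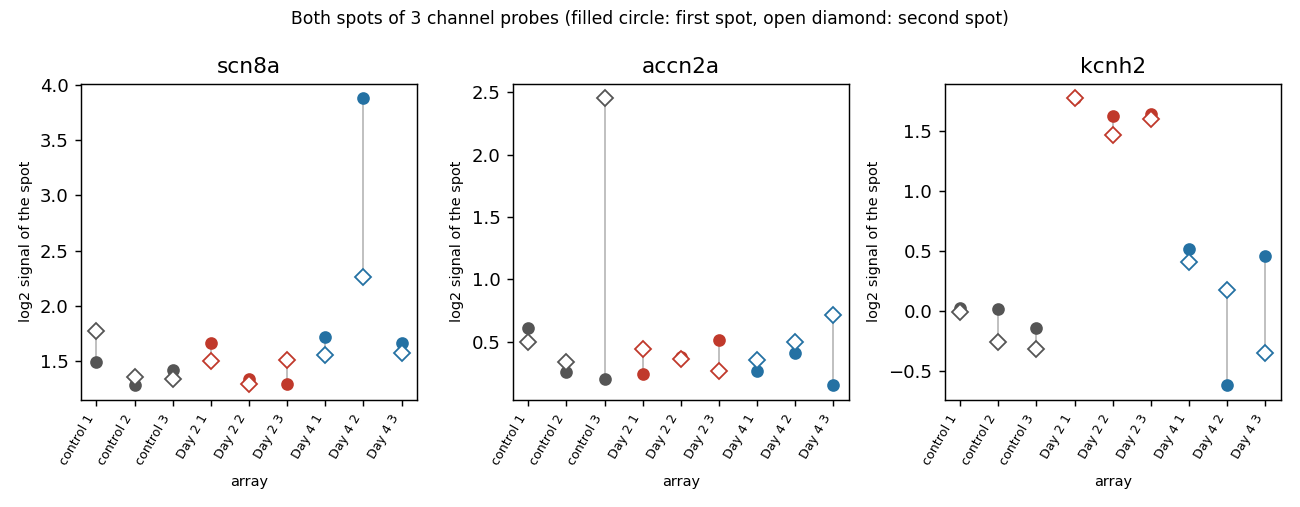
Log2 signal of both spots of the scn8a, accn2a and kcnh2 probes on each array, coloured by group and joined by a line. The spots of scn8a part on Day 4 replicate 2 (3.88 and 2.26) and those of accn2a on control replicate 3 (0.20 and 2.45), while the Day 2 spots of kcnh2 lie between 1.47 and 1.78.

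The calcium channel probes were detected on all control and Day 2 arrays. The gene cacna1c codes for the pore subunit of an L-type channel of heart and muscle, and its 2 probes shared 47 bases on danRer2 chromosome 4. The probe A_15_P117366 read 0.05, 0.09 and 0.41 in control, 0.06, 0.18 and 0.63 on Day 2, and 0.30, 0.24 and 0.39 on Day 4, and the groups overlapped. It was detected on 1 of 3 Day 4 arrays. Its log2 difference was 0.11 ± 0.15 in Day 2:Control (95% interval -0.27 to 0.48) and 0.03 ± 0.16 in Day 4:Control (-0.37 to 0.44). The overlapping probe spread more widely, from -0.00 to 1.18 within control, and its interval in Day 2:Control ran from -0.91 to 0.81.

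The gene cacng2 (RefSeq cacng2a; A_15_P120824, danRer2 chr3:21428251-21428310) is named as a calcium channel gamma subunit, and in mammals its product, stargazin, carries AMPA-type glutamate receptors to synapses. Its level was 1.58, 1.60 and 1.37 in control, 1.397, 1.15 and 0.99 on Day 2, and 1.48, 1.50 and 1.39 on Day 4. The Day 2 arrays were lowest on each slide, but the highest of them lay above control replicate 3. The probe was not detected on Day 4 replicate 2. The log2 difference in Day 2:Control was -0.34 ± 0.13 (95% interval -0.67 to -0.01, adjusted P = 0.519), with -0.18, -0.45 and -0.38 within the slides. It did not pass the threshold.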

How the data were processed

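Spot intensity was deposited as the authors obtained it from Feature Extraction 9.5.1.1 (background-subtracted and corrected for spatial trends within the array, not scaled between arrays), with the flags of each spot, coded 0 or 1, as its other values. The tables of the authors' own comparisons hold fold changes, P-values and group means and were not used. Spots flagged as feature outliers were dropped, log2 of the processed signal was taken, the 50th percentile of the array was subtracted and the 2 spots of a probe were averaged. A model with group and slide was fitted to the 9 arrays and all 21495 probes with limma 3.58.1 (lmFit, eBayes) in R 4.3.3, with Benjamini-Hochberg adjustment over all probes. Significance needed an adjusted P-value of at most 0.05 and a fold change of at least 1.4. Intervals are 95% intervals of this model. All fold changes are on the scaled log2 values. Bounds set the array's lowest detected signal as the least value of a dim group, and they take no account of the spread between arrays. Probes with a higher signal than this were undetected on some arrays, so the bounds are not strict limits. No probe was filtered.

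Slides were derived from the array barcodes and scan times in the scanner output. By these, Day 4 replicates 2 and 3 were on the same slide, whereas the methods place 1 replicate of each group on each slide, and the slide term follows the scanner output. Control and Day 2 arrays of the same number shared a slide and deviated together (r of 0.49, 0.25 and 0.51 over 8572 probes), so these numbers pair them. The Day 4 numbers did not (r of -0.07 to 0.12). Nor did the Day 4 arrays deviate together with the control and Day 2 arrays of their own slide (r of -0.04 to 0.12). The methods' paired test was run by replicate number all the same, so its pairing does not hold for the comparisons with Day 4. The fit was tested on simulated data for Day 2:Control. Of 100 probes with a set log2 change of size 1, 63% were called, and of 100 with size 2, 99%. A further 12 unchanged probes were called. Changes were set only in probes with a mean level above 1, so the test does not cover dimmer probes such as those of kcnh2 and p2rx2. The number of arrays limits the precision. Gene names are those of the array, and RefSeq symbols were found for 28 of the 30 probes by accession and for 2 by symbol. Coordinates are the array's, on danRer2. Python 3.11.15 with numpy 2.4.6 and pandas 2.3.3 handled the tables, and matplotlib 3.10.9 the plots.

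The members and gene lists were chosen with earlier results of these data known. Values on every array were to be given for probes that passed in any comparison (kcnh2, p2rx2), for probes detected on all 9 arrays with a fold change of at least 1.4 and no overlap (scn8a), and for the brightest probes of a family detected on all 9 arrays (kcnk5, scn8a). The others given in full (p2rx4a, accn1, accn2a, cacna1c, cacng2) were chosen after their values were seen.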

Additional observations from a re-analysis of the deposited data

How the results depend on the processing

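The processing changed how many channel probes were significantly regulated, and the share of all probes that passed moved with it. In Day 2:Control the count of 2 (0.735% of all probes passed) became 3, with accn1 added, under scaling to the 75th percentile (2.93%), quantile normalization (3.62%), no slide term (2.35%) and a variance trend with robust estimation (4.72%). It became 4, with p2rx4a also added, when only probes detected on all 3 arrays of at least 1 group were tested (9.29% of those) and by the methods' t-test, paired and unadjusted (5.34%). It became 1 (kcnh2) after Benjamini-Hochberg adjustment of that test (1.03%) and with the replicate block in place of the slide (0.414%), and 0 with normexp background correction (0.00465%) and with only the 6 arrays of the comparison (0.0512%). It was 0 from the first spot alone (0.395%) and 1 (kcnh2) from the second (0.563%), alternatives chosen after seeing the data. In Day 4:Control the count of 0 (0.279%) became 1 (p2rx2) with quantile normalization (2.25%), no slide term (1.39%), the filter on dim probes (9.34%), the variance trend (4.53%) and the unadjusted methods' t-test (3.15%). In Day 4:Day 2 the count of 0 (0.0651%) became 1 (kcnh2) with scaling to the 75th percentile (1.72%), no slide term (0.856%), the variance trend (4.48%) and the unadjusted methods' t-test (2.94%), and 2 (kcnh2 and p2rx4a) with the filter on dim probes (9.41%). The probes of kcnh2 and p2rx4a met that filter only through Day 2, the group where they were high, so these calls lend no support. With each array left out in turn the counts ran from 0 to 3 in Day 2:Control and stayed at 0 in both other comparisons. Outside Day 2:Control, the replicate block changed no count. Of 17 log2 fold changes followed through the alternatives, 4 changed sign: kcnh2 in Day 4:Control with quantile normalization (-0.018), accn1 (-0.029) and kcnk5 (-0.29) in Day 4:Day 2 with normexp, and accn2a in Day 2:Control from the first spot (0.019). Counting detection on at least 1 array of a group instead of all 3 gave 14 channel probes in control, 14 on Day 2 and 11 on Day 4. The cause of these differences was not tested. Each group was 1 RNA pool, and Day 4 replicates 2 and 3 lay on slide 3 with its high local background.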

Other observations

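Channel genes outside the naming rule were counted in the same fit. Of 63 probes for other channels chosen by symbol (glutamate, glycine, GABA and acetylcholine receptors, chloride intracellular channels, aquaporins, voltage-dependent anion channels and others), 36 were detected on at least 1 array and 19 on all 9. None was significantly regulated in any comparison. The median log2 difference of the 63 was 0.0073 in Day 2:Control (0.12 for all probes), 0.34 in Day 4:Control (0.29) and 0.30 in Day 4:Day 2 (0.24). These medians are no measure of transcript level, since they include 27 undetected probes of the 63 and 7602 undetected probes of all. A further 36 probes, found through a description or RefSeq symbol of a channel subunit, held 7 detected on all 9 arrays and again none that was significantly regulated. A list of 32 probes for possible hair cell partners of channels held calmodulin, parvalbumin, otoferlin and tip link genes, myo7a and mass1 (RefSeq adgrv1). Of these, 23 were detected on at least 1 array and 22 on all 9. Calmodulin and parvalbumin genes were taken by name, whether or not they are hair cell genes, and they made up most of the 22. The otoferlin and tip link probes (RefSeq otofa, cdh23 and pcdh15b) were not detected on any array. Of the 32 probes 1 was lower, a probe of the calcium buffer pvalb4. It was at -1.42 in Day 2:Control (adjusted P = 0.0210) and -1.50 in Day 4:Control (adjusted P = 0.0308). The other pvalb4 probe was not detected on any array. In the same comparisons 5 and 9 of the 38 skeletal muscle probes fell, the 5 being for zgc:66286 and zgc:86932 only. The part of muscle in the pvalb4 result was not tested.

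The further probe annotated as zgc:55306 (kcnd3), chosen after its values were seen, is placed on chromosome 8 of danRer2 and not on chromosome 4. It was detected on all 9 arrays at 4.74 to 5.42, while the kcnd3 probe of the rule was detected on none.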
